A study of Mus musculus with 6 samples.

Results

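Fibroblast 2 is a cell type name that the deposited annotation gives to 3019 of 25428 cells of cultured mouse RPE/choroid, and every cell with this name was used. Male C57BL/6J mice aged 12 to 16 months gave the tissue, for 3 Dram2 wt/wt samples and 3 Dram2 ko/ko samples. The knockout allele was made with CRISPR/Cas9 and a pair of guide RNAs that removed exon 4 of Dram2, which encodes a lysosomal membrane protein linked to autophagy, in the whole animal. The choroid with the attached RPE was dissociated with papain and grown in RPE culture medium before droplet-based 3′ sequencing, so the cells are those that attached and grew in a dish. All samples belonged to batch 1 except Dram2 ko/ko replicate 3, the only sample of batch 2. Neither the labels nor the tables say whether the 3 samples of a genotype came from separate animals, and p-values then measure only the spread between these samples.

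Fibroblasts of the choroid are stromal cells of neural crest and mesodermal origin that build the collagen and elastic fibre scaffold between the choroidal vessels. In culture, fibroblasts commonly take on a contractile state with smooth muscle actin, and they can release chemokines that attract eosinophils, monocytes and neutrophils. Small leucine-rich proteoglycans such as decorin (Dcn) and lumican (Lum) bind collagen fibrils and control their diameter, and they are widely used as fibroblast markers.

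Of the Fibroblast 2 cells, 540, 341 and 344 belonged to Dram2 wt/wt replicates 1 to 3 and 374, 1007 and 413 to Dram2 ko/ko replicates 1 to 3. Depth per cell was counted in unique molecular identifiers (UMIs), each of which stands for 1 captured RNA molecule. The median Fibroblast 2 cell of the 6 samples had between 14490 UMIs, in Dram2 ko/ko replicate 2, and 37390 UMIs, in Dram2 ko/ko replicate 1. Summed over the cells of a sample, the totals ran from 6738953 to 14967107 UMIs. Levels below are such sums scaled to a common library total (CPM), given as mean ± SD over the 6 samples unless stated otherwise. The cells carry running names in place of droplet barcodes, so barcodes shared between libraries could not be counted.

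The 6 markers named for this cell type, Dcn, Lum, Igfbp5, Alpl, Tcf21 and Ccl11, were each at their highest in Fibroblast 2 among the 8 annotated types when all cells of a type were summed. Their summed level was 6570 CPM over all Fibroblast 2 cells, where the next type had 770.0 CPM. Because the cells were clustered on their expression, differences from other types describe the cluster and carry no test. Of 8 general fibroblast markers, only Pdgfra, the receptor for platelet-derived growth factor A, was higher than in the cells annotated Fibroblast, at 121 ± 24.5 CPM against 53.6 ± 5.24 CPM. The other 7 (Col1a1, Col1a2, Col3a1, Thy1, Vim, S100a4 and Fn1) were lower in 6 of 6 samples, and the list summed to 3239 CPM against 8200.0 CPM in Fibroblast. Vim, or vimentin, the intermediate filament of mesenchymal cells, was at 2535 ± 254 CPM against 5135 ± 311 CPM, Col3a1 at 151 ± 53.2 CPM against 241 ± 66.8 CPM, and Thy1 at 3.80 ± 1.28 CPM against 27.8 ± 2.44 CPM.

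Markers of RPE and myeloid cells were at or near 0, while those of pericytes and of cartilage and bone were present in part. The RPE genes Rpe65, Krt8, Tyrp1 and Dct had no UMI in any Fibroblast 2 cell, and all 10 RPE markers together gave 2.97 to 6.38 CPM over the Dram2 wt/wt samples and 1.47 to 3.06 CPM over the knockout samples, against 561 CPM in RPE cells. The 9 myeloid markers summed to 9.23 to 11.6 CPM and 7.09 to 9.64 CPM in these groups, against 13919 CPM in Myeloid cells, and Adgre1 had no UMI. The 7 endothelial markers summed to 295 to 345 CPM and 313 to 404 CPM, of which Emcn gave 331 ± 40.3 CPM, lower than in Fibroblast (406 ± 57.7 CPM), and Pecam1 0.488 ± 0.428 CPM. The 8 pericyte markers summed to 147 to 202 CPM and 142 to 204 CPM, and over all cells to 163 CPM in Fibroblast 2, 209 CPM in Fibroblast and 245 CPM in the cells annotated Pericyte. The name of these last cells goes against their markers, since Kcnj8, Higd1b and Ndufa4l2 had no UMI in them, Cspg4 alone gave 207 CPM of their sum, and 8 Schwann cell markers summed to 1566 CPM, against 8.45 CPM in Fibroblast 2. Among the pericyte markers, Kcnj8 and Abcc9, which encode the subunits of a vascular potassium channel, stood at 23.7 ± 7.28 CPM and 7.09 ± 2.57 CPM in Fibroblast 2, with 0.754 ± 0.287 CPM and 0.639 ± 0.198 CPM in Fibroblast. Rgs5, Cspg4 and Notch3 were lower than in Fibroblast in 6 of 6 samples, at 13.7 ± 8.50 CPM, 20.7 ± 3.53 CPM and 9.67 ± 2.10 CPM against 67.05 ± 18.8 CPM, 37.5 ± 5.998 CPM and 14.2 ± 2.88 CPM. Pdgfrb was close in both, at 93.6 ± 18.01 CPM and 86.7 ± 16.2 CPM, and so was Ndufa4l2, at 2.20 ± 0.598 CPM and 2.24 ± 0.887 CPM, while Higd1b was at 0.0111 ± 0.0273 CPM. Melanocyte, T cell, epithelial and photoreceptor lists each summed to under 2 CPM in every sample. Of 7 cartilage and bone markers, Acan, Bglap and Ibsp had no UMI, Sox9 was at 25.6 ± 4.84 CPM against 15.4 ± 1.85 CPM in Fibroblast, and Runx2 was at 13.9 ± 2.11 CPM against 24.7 ± 2.91 CPM. Col2a1 and Sp7 were at 1.78 ± 0.887 CPM and 1.19 ± 0.427 CPM. This list summed to 35.6 to 42.6 CPM over the Dram2 wt/wt samples and 43.6 to 47.4 CPM over the Dram2 ko/ko samples. The 6 adipocyte markers, of which Cebpa was the highest at 17.98 ± 1.23 CPM and Adipoq had no UMI, summed to 28.7 to 30.8 CPM and 32 to 34.0 CPM. The part of both lists in the genotype results was not tested.

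Compared with Fibroblast, the largest annotated type of the same samples, Fibroblast 2 was set apart by secreted signals and by a lower level of contractile, collagen and fibronectin genes. Levels were compared within each sample as the log2 ratio of CPM after 5 CPM were added to both values, and the median over the 6 samples is given. This scale understates the difference of low genes. Of 3880 protein-coding genes with a mean of at least 50 CPM in either type, 130 had a median difference above 1 and 181 below -1, and each of these had the same direction in 6 of 6 samples. The median over the 3880 genes was 0.06.

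The gene with the highest difference was Igfbp5, a secreted protein that binds insulin-like growth factors. It stood at 1941, 4529 and 4863 CPM in the Dram2 wt/wt and 2629, 1821 and 4325 CPM in the Dram2 ko/ko samples, and at 69.1 ± 20.9 CPM in Fibroblast, a median log2 difference of 5.29 (4.82 to 6.29). Every sample was far above its own Fibroblast cells, but among the Fibroblast 2 values 3 were lower (replicate 1 of Dram2 wt/wt, replicates 1 and 2 of Dram2 ko/ko) and 3 higher. Ccl11, or eotaxin, the chemokine that draws eosinophils, was at 578, 1014 and 1146 CPM in the Dram2 wt/wt and 742, 814 and 1160 CPM in the Dram2 ko/ko samples, and at 35.8 ± 14.3 CPM in Fibroblast (median log2 difference 4.37). For both genes the genotypes overlapped. Sod3, the extracellular superoxide dismutase, followed with 254 ± 123 CPM against 8.61 ± 1.72 CPM. Rgs2, which limits signalling by G proteins, had 157 ± 54.2 CPM against 5.99 ± 0.398 CPM. Alpl, the tissue-nonspecific alkaline phosphatase that hydrolyses pyrophosphate, had 41.4, 111 and 119 CPM in the Dram2 wt/wt and 60.4, 35.8 and 107 CPM in the Dram2 ko/ko samples, with 1.65 ± 0.437 CPM in Fibroblast.

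The remaining leading genes by the same rule were Gzmd, Il11, Chchd10, Gzme, Cd200, Spp1 and Kcne4, with median differences between 3.05 and 3.83. Il11, a cytokine of the interleukin 6 family, was at 4556, 5693 and 6668 CPM in the Dram2 wt/wt and 5552, 5487 and 6311 CPM in the Dram2 ko/ko samples, against 516 ± 133 CPM in Fibroblast. Spp1, or osteopontin, a phosphorylated matrix protein that macrophages and bone cells also make, was at 15388 ± 3484 CPM against 1739 ± 313 CPM. Cd200, an immunoregulatory surface protein, was at 104 ± 24.4 CPM against 7.73 ± 1.14 CPM. The granzyme genes Gzmd and Gzme were at 161 ± 109 CPM and 262 ± 153 CPM. They belong to a family of close copies on chromosome 14, and 30% and 35.95% of their 3′ sequence also occurs in other genes, so reads may have been split between them. Chchd10, a mitochondrial protein, had 551 ± 98.3 CPM against 46.2 ± 4.87 CPM. Kcne4, a regulatory subunit of potassium channels, had 75.2 ± 23.7 CPM against 3.80 ± 0.657 CPM.

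At the other end stood Stmn2, a tubulin-binding protein best known from neurons, at 17.4 ± 6.71 CPM in Fibroblast 2 and 620.1 ± 109.9 CPM in Fibroblast (median log2 difference -4.88, -5.25 to -4.06). S100a4, a calcium-binding protein, was at 50.2 ± 20.6 CPM against 694 ± 217 CPM. The annotation places Gm42674 across the same stretch of chromosome 3 as S100a4, and its counts of 44.2 ± 18.8 CPM cannot be told apart from those of S100a4. Ccnd1, or cyclin D1, which drives entry into the cell cycle, was at 18.8 ± 6.14 CPM against 244 ± 26.9 CPM. Spon2, Tbx20, Col2a1, Tubb3, Prss23, Fn1, Cnn1 and Col1a2 completed the lower end, with median differences from -3.24 to -2.77. Of these, Fn1, or fibronectin, was at 96.4 ± 33.2 CPM against 738 ± 124 CPM, and Tbx20, a transcription factor of the heart and vessels, at 3.78 ± 0.873 CPM against 69.8 ± 11.3 CPM.

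**Figure D1:**
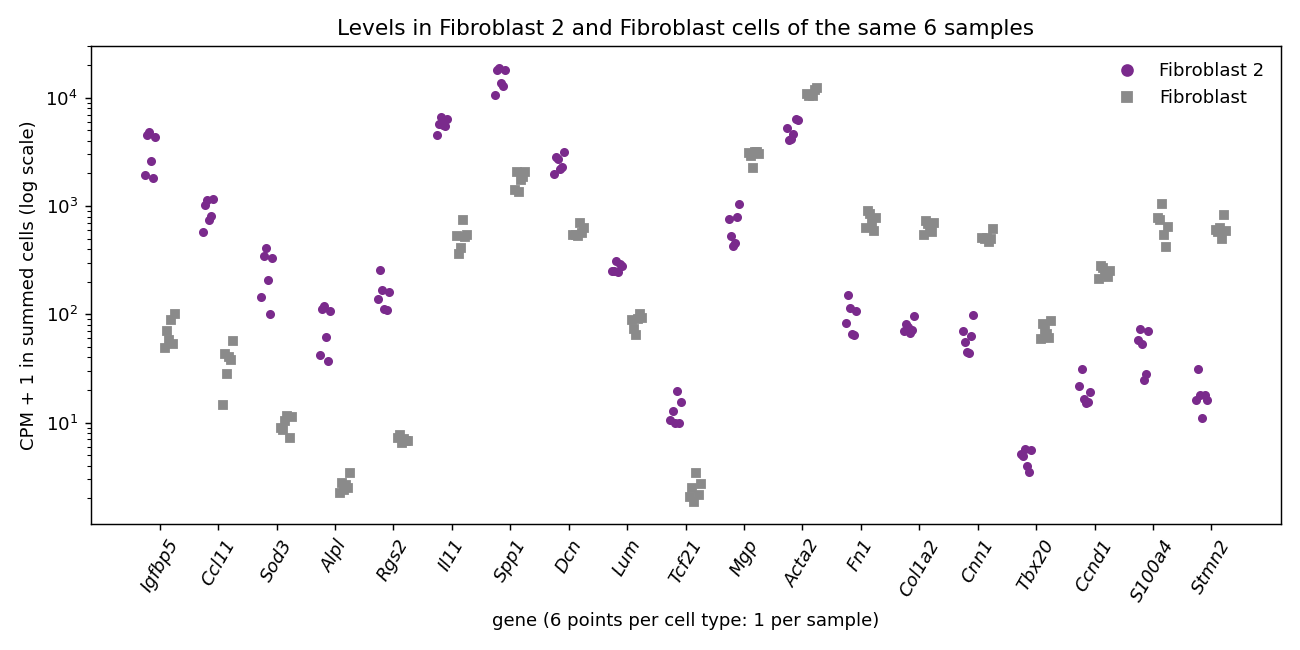
Level of 19 genes in the summed Fibroblast 2 cells (circles) and Fibroblast cells (squares) of each of the 6 samples, as CPM + 1 on a log axis. Igfbp5, Ccl11, Sod3, Alpl, Rgs2, Il11, Spp1, Dcn, Lum and Tcf21 were higher in Fibroblast 2 in 6 of 6 samples, and Mgp, Acta2, Fn1, Col1a2, Cnn1, Tbx20, Ccnd1, S100a4 and Stmn2 were lower in 6 of 6.

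Genes were grouped by 22 lists, and only members with a mean of at least 5 CPM in one of the types were counted. As a measure of what any set of genes gives, 2.54% of all 10876 genes at that level had a median difference above 1 and 3.3% had one below -1. Of 23 chemokine and cytokine genes found, 16 reached the minimum, 10 of them had a median difference above 1 and none below -1, with a list median of 1.30 beside 0.04 over all genes. Next to Ccl11 and Il11 these were Ccl7, Lif, Il6, Ccl2, Cxcl2, Cxcl16, Cxcl1 and Cxcl14. Ccl7 and Ccl2, which attract monocytes, were at 3203 ± 475 CPM and 1165 ± 238 CPM, against 387 ± 88.6 CPM and 218 ± 56.9 CPM in Fibroblast. Lif and Il6, which signal through the same receptor subunit as Il11, were at 288 ± 94.5 CPM and 425 ± 132 CPM, against 30.96 ± 5.59 CPM and 61.5 ± 10.4 CPM. Cxcl14 was higher in 5 of 6 samples and the other 9 in 6 of 6. The epithelial cytokine Tslp was lower, at 1.35 ± 0.344 CPM against 5.85 ± 1.27 CPM, and the macrophage growth factor Csf1 was close in both, at 893 ± 80.6 CPM and 980.4 ± 77.2 CPM.

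Interferon-responsive genes were also higher in part. Of 16 genes, 11 reached the minimum and 5 had a median difference above 1, with Isg15, Usp18, Bst2 and Oasl2 among them, and none had one below -1. Bst2, or tetherin, was at 219 ± 27.3 CPM against 95.7 ± 13.96 CPM. Isg15, a ubiquitin-like protein, was at 54.95, 109.8 and 184 CPM in the Dram2 wt/wt and 86.8, 33.6 and 142 CPM in the Dram2 ko/ko samples, with overlapping genotypes. Ifit3 was close in both types, at 9.33 ± 8.08 CPM and 10.2 ± 6.997 CPM, and its SD was nearly as large as its mean.

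Matrix genes divided by kind. The proteoglycans had 5 of 14 members at the minimum. Dcn was at 1994, 2869 and 2731 CPM in the Dram2 wt/wt and 2189, 2306 and 3128 CPM in the Dram2 ko/ko samples, 2.17 above Fibroblast on the log2 scale, and Lum was at 250.2, 248 and 307 CPM in the Dram2 wt/wt and 248, 291 and 279 CPM in the Dram2 ko/ko samples, 1.53 above it. Biglycan (Bgn) was at 1120 ± 101 CPM against 1959 ± 175 CPM, and osteoglycin (Ogn) at 9.53 ± 5.58 CPM against 24.7 ± 9.59 CPM, both lower in 6 of 6 samples. Of 22 collagen genes, 16 reached the minimum, 7 were below -1 and none above 1, with a list median of -0.83. Col1a2, a chain of fibrillar collagen I, was at 69.8, 79.98 and 75.7 CPM in the Dram2 wt/wt and 66.2, 70.7 and 95.3 CPM in the Dram2 ko/ko samples, against 645 ± 72.8 CPM in Fibroblast, and Col1a1, its partner chain, at 187 ± 29.5 CPM against 674 ± 88.3 CPM. Col6a3 was at 4.19 ± 0.753 CPM against 31.4 ± 0.919 CPM. Col11a1 was the collagen gene with the highest difference, 0.33, at 182 ± 25.1 CPM.

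Of 34 elastic fibre and matricellular genes found, 30 reached the minimum, 13 of them were below -1 and 1, Spp1, above 1. Thbs1, or thrombospondin 1, was at 543 ± 53.3 CPM against 2726 ± 309.5 CPM, while versican (Vcan) was higher, at 193 ± 35.4 CPM against 126 ± 16.7 CPM. Mgp, an inhibitor of calcification, was at 764, 528 and 429 CPM in the Dram2 wt/wt and 454, 786 and 1049 CPM in the Dram2 ko/ko samples, and at 2931 ± 359 CPM in Fibroblast. Ank, which exports pyrophosphate, was lower too, at 46.7 ± 4.68 CPM against 261 ± 29.03 CPM. Of 8 mineralisation genes at the minimum, Alpl, Spp1 and Tnfsf11 were above 1, and Mgp, Ank and Tnfrsf11b were below -1. Tnfsf11 and Tnfrsf11b encode RANK ligand and its decoy receptor, at 52.96 ± 22.1 CPM and 77.8 ± 7.11 CPM, against 1.82 ± 0.305 CPM and 237 ± 41.8 CPM in Fibroblast.

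Contractile genes were lower than in Fibroblast with few exceptions. All 14 members reached the minimum, 5 were below -1 (Acta2, Cnn1, Myh11, Actg2 and Lmod1) and none above 1, with a list median of -0.70. Acta2, smooth muscle actin, was at 5095 ± 998 CPM against 11071 ± 824 CPM, Cnn1, or calponin, at 61.9 ± 20.7 CPM against 514 ± 50.4 CPM, and Actg2 at 252 ± 60.9 CPM against 1090 ± 103 CPM. Tagln was at 6150 ± 1218 CPM against 9121 ± 1071 CPM. Desmin (Des), a muscle intermediate filament, ran the other way with 231 ± 15.4 CPM against 116 ± 10.3 CPM, and Cald1 was close in both, at 4042 ± 352 CPM and 3849 ± 289 CPM.

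Growth factor and signalling genes went both ways. Of 17 angiogenic and growth factor genes at the minimum, 7 were above 1 (Vegfa, Vegfb, Pgf, Angpt1, Fgf2, Fgf7 and Pdgfra) and 3 below -1 (Angptl2, Pdgfd and Serpinf1). Fgf2, Pgf and Vegfa, which act on vessels, were at 115 ± 20.4 CPM, 382 ± 79.8 CPM and 259.7 ± 27.7 CPM, against 34.98 ± 3.60 CPM, 166 ± 20.4 CPM and 120.1 ± 14.6 CPM in Fibroblast. Serpinf1, which encodes PEDF, an inhibitor of vessel growth, was lower at 118 ± 31.7 CPM against 339.5 ± 40.9 CPM. In the insulin-like growth factor system, Igfbp2 and Igfbp4 were lower, at 246 ± 60.8 CPM and 175 ± 47.7 CPM against 1086 ± 157 CPM and 791 ± 70.6 CPM, while Igf2r was at 269 ± 54.9 CPM against 174 ± 19.1 CPM. Among TGF-beta genes, 6 of 22 were below -1, including the ligand genes Inhba (103 ± 14.5 CPM against 579.6 ± 24.2 CPM) and Tgfb2 (27.6 ± 5.76 CPM against 172 ± 34.6 CPM), and 2 were above 1, the co-receptor gene Tgfbr3 (17.5 ± 3.79 CPM) and Gdf10 (17.8 ± 11.1 CPM). Of 9 Wnt pathway genes at the minimum, Rspo3 and Wnt11 were above 1 and Wnt2 below -1. Rspo3, which amplifies Wnt signals, was at 73.5 ± 8.40 CPM against 17.6 ± 1.36 CPM, and the Wnt inhibitor Dkk2 at 218 ± 33.8 CPM against 375 ± 63.4 CPM.

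Of 33 mesenchymal transcription factors at the minimum, 2 were above 1 (Tcf21 and Foxf1) and 4 below -1 (Tbx20, Prrx1, Prrx2 and Klf4). Tcf21, a factor of mesenchymal progenitors, was at 9.57, 11.9 and 8.90 CPM in the Dram2 wt/wt and 18.4, 8.89 and 14.6 CPM in the Dram2 ko/ko samples, with 1.45 ± 0.581 CPM in Fibroblast, and Foxf1 was at 14.7 ± 3.48 CPM against 4.47 ± 1.04 CPM. Prrx2, a homeobox factor of limb and face mesenchyme, was at 78.8 ± 14.2 CPM against 389 ± 31.1 CPM. Foxp1, a forkhead factor, was at 416 ± 40.3 CPM against 249.6 ± 21.8 CPM.

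Other groups differed less. Of 17 metalloproteinase and inhibitor genes, Mmp3, or stromelysin 1, was the only one above 1 (61.5 ± 19.98 CPM against 11 ± 5.45 CPM), and 4 were below -1 (Mmp16, Mmp23, Timp2 and Adamts5), with Mmp23 at 2.73 ± 1.03 CPM against 39.2 ± 3.62 CPM. No member of the autophagy list (21 genes at the minimum) or of the lysosome list (24 genes) passed 1 in either direction, and the list medians were 0.27 and 0.18. Among them, Sqstm1, an autophagy receptor, was at 254 ± 21.4 CPM against 159 ± 9.79 CPM, and Lamp1, a lysosomal membrane protein, at 1571 ± 67.2 CPM against 1144 ± 45.9 CPM. Dram1, a relative of Dram2, was at 22.6, 20.8 and 19.5 CPM in the Dram2 wt/wt and 24.6, 26.5 and 20.1 CPM in the Dram2 ko/ko samples. Of 7 G2/M phase genes at the minimum, 3 were below -1 (Cdk1, Tpx2 and Ube2c), and all 7 were lower in 6 of 6 samples, with Cdk1 at 4.32 ± 3.06 CPM against 18.6 ± 2.38 CPM. Cdkn1a, the p21 inhibitor of the cell cycle, was at 1522 ± 107 CPM against 1090 ± 111 CPM. Of the immediate early genes, Nr4a1 (99.7 ± 36.98 CPM against 23.7 ± 3.99 CPM) and Ier3 (904 ± 142 CPM against 369 ± 53.6 CPM) were above 1. C2 was the single complement gene above 1, at 17.8 ± 2.87 CPM against 5.97 ± 0.835 CPM. In the hypoxia and glycolysis list none of 12 genes passed 1, and in the p53 target list Gdf15 was below -1, at 12.8 ± 2.02 CPM against 34.6 ± 5.96 CPM.

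Single cells were compared after each was thinned to 5000 UMIs. A UMI of Dcn was found in 84.8% to 91.1% of Fibroblast 2 cells per sample, with a median of 6 to 12 UMIs, and in 53.2% of Fibroblast cells. Myeloid cells, which should lack Dcn, showed it in 37.1% of 70 cells. The median depth before thinning was 18394 UMIs in Fibroblast 2, 26108 in Fibroblast and 16550 in Myeloid cells, and free RNA can give UMIs in cells that do not express a gene. Endothelial cells showed Dcn in 13.2%. Igfbp5 was found in 41.8% to 64.8% of Fibroblast 2 cells, Ccl11 in 23.8% to 35.5% and Alpl in 13.7% to 34.6%. In Myeloid cells these shares were 7.14%, 5.71% and 2.86%, and in Fibroblast 7.45%, 4% and 1.25%. Igfbp5 was also found in 59.6% of the 292 cells annotated Pericyte, with Schwann markers as described, and Ccl11 and Alpl in 0.685% each. Tcf21 was found in 3.36% to 7.18% of Fibroblast 2 cells and in 1.43% of Myeloid cells. Before thinning, at median depths of 14490 to 37390 UMIs, Igfbp5 was found in 48.9% to 72.7% of Fibroblast 2 cells and Ccl11 in 29.1% to 42.8%. Mgp went the other way, with 38.1% to 57.4% of Fibroblast 2 cells, 87.1% of Fibroblast cells, 95.7% of Fibroblast proliferating and 83.2% of Fibroblast-like cells. It was found in 67.1% of Myeloid, 49% of Endothelial, 40.2% of RPE and 38.7% of the cells annotated Pericyte.

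The markers did not split the cells into exclusive groups. Ccl11 was found in 36.4% to 50.5% of the thinned Fibroblast 2 cells with Alpl and in 19.9% to 30.4% of those without it, and the share was higher beside Alpl in 6 of 6 samples. The share with Ccl11 was higher beside Lum as well, in 6 of 6 samples, although in Dram2 ko/ko replicate 1 by 24.2% against 23.9%. Mgp showed no such order with Ccl11, which was found in 23.1% to 34.7% of cells with Mgp and 23.7% to 38.4% of those without. Alpl was found less often beside Mgp in 6 of 6 samples, in 12.8% to 31.2% of cells with Mgp and 14.6% to 41.0% of those without. Beside Lum it was found more often, also in 6 of 6 samples.

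In the authors' sub-clustering of fibroblasts, 2964 of the 3019 cells fell into sub-cluster 3, which also held 811 Fibroblast cells. The 55 other cells were spread over 6 sub-clusters. Within sub-cluster 3, Dcn was at 2567 ± 445 CPM in Fibroblast 2 cells and 2242 ± 159 CPM in Fibroblast cells, against 465 ± 50.3 CPM in the Fibroblast cells of other sub-clusters. Lum was higher in the Fibroblast cells of sub-cluster 3, at 616 ± 48.3 CPM, than in Fibroblast 2, at 276 ± 26.6 CPM. Igfbp5 separated them, at 3431 ± 1424 CPM in Fibroblast 2 and 422 ± 173 CPM in the Fibroblast cells beside it, and so did Alpl, at 81.0 ± 38.8 CPM and 12.0 ± 5.75 CPM. Tcf21 did not, at 12.26 ± 3.90 CPM in Fibroblast 2 and 10.96 ± 5.82 CPM in the Fibroblast cells of sub-cluster 3. Mgp was at 667 ± 240 CPM in Fibroblast 2 and 5858 ± 1184 CPM in the Fibroblast cells of sub-cluster 3, which thus lay above the 2725 ± 322 CPM of the remaining Fibroblast cells. Ccl11 in the Fibroblast cells of sub-cluster 3 ranged from 47.3 CPM in Dram2 wt/wt replicate 1 to 682 CPM in Dram2 wt/wt replicate 2. Acta2 was at 5002 ± 965 CPM in Fibroblast 2 and 11583 ± 726 CPM in the Fibroblast cells of sub-cluster 3.

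Several markers varied between samples in a way that did not follow genotype. All 12 leading genes were each lower in 3 samples (replicate 1 of Dram2 wt/wt, replicates 1 and 2 of Dram2 ko/ko) than in the other 3. So were Dcn, Isg15, Gdf10, Pdgfra, Col1a1, Col3a1 and Fn1, while Lum, Tcf21 and Mgp did not follow this order. The first principal component, the axis along which the 6 sums varied most (36.0% of variance), was at -10.25, -9.89 and -34.2 in these 3. In Dram2 wt/wt replicates 2 and 3 and Dram2 ko/ko replicate 3 it was at 31.7, 21.7 and 0.949. On this axis Dram2 ko/ko replicate 3 lay nearer to replicate 1 of either genotype than to Dram2 wt/wt replicates 2 and 3. The second component (30.03% of variance) was at 42.55 in Dram2 ko/ko replicate 3, the only batch 2 sample. In the other samples it lay between -17.97 and -0.834. Spp1, as an example of the leading genes, was at 10557, 18237 and 19005 CPM in the Dram2 wt/wt and 13761, 12784 and 17982 CPM in the Dram2 ko/ko samples. Gdf10, a bone morphogenetic protein-like factor, was at 9.57, 37.8 and 20.8 CPM in the Dram2 wt/wt and 10.8, 8.42 and 19.4 CPM in the Dram2 ko/ko samples. The same 3 samples with lower levels also held the larger shares of Fibroblast 2 cells, 14.1%, 17.5% and 15.2% of all cells, where the others had 7.41%, 7.96% and 10.6%. These samples were not grouped by any label, and no test was made of this order. The grouping was taken from these same values, and the share of all genes with this order was not counted. It therefore cannot be said whether the order is particular to these genes.

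**Figure D2:**
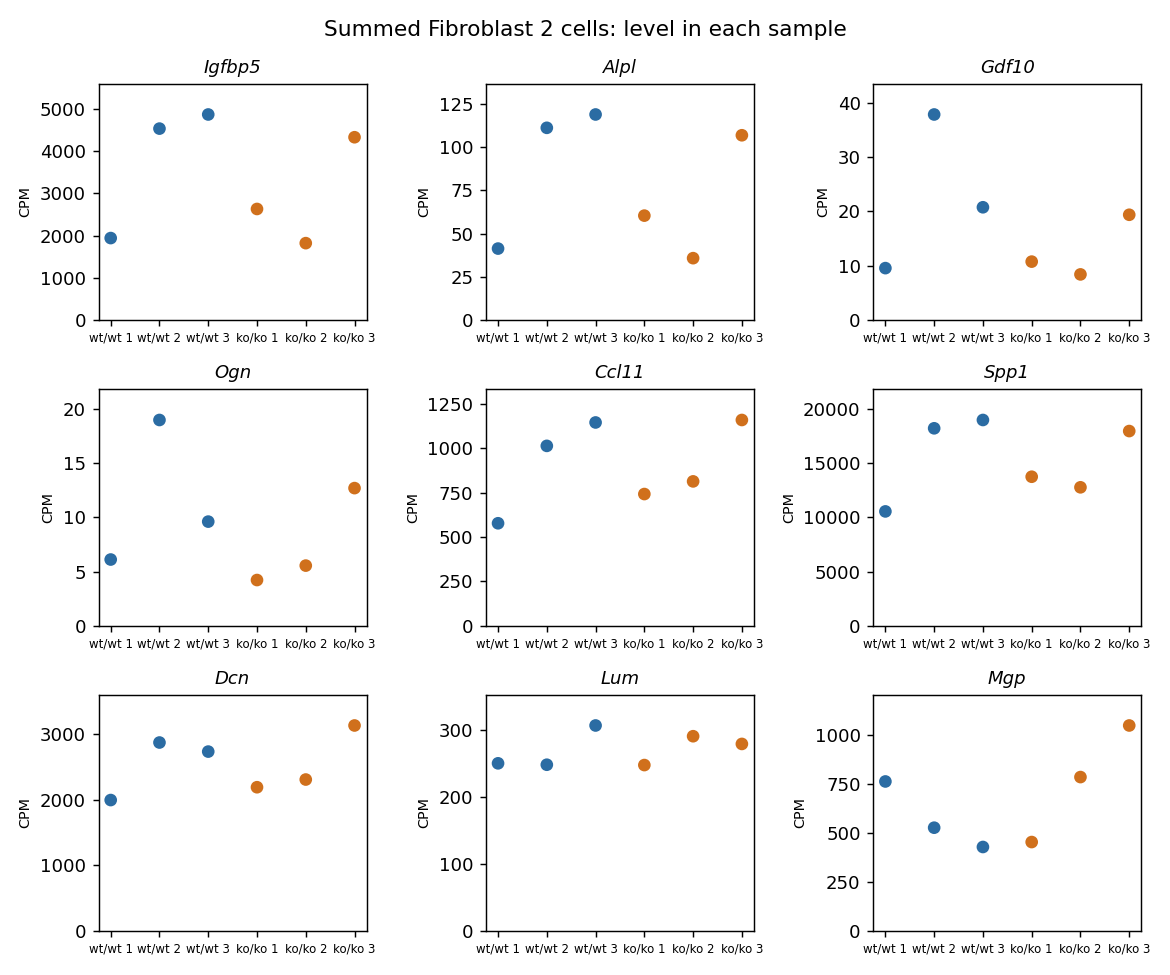
Level of 9 genes in the summed Fibroblast 2 cells of each sample, in CPM on axes that start at 0, with Dram2 wt/wt in blue and Dram2 ko/ko in orange. Igfbp5, Alpl, Gdf10, Ccl11, Spp1 and Dcn were lower in wt/wt 1, ko/ko 1 and ko/ko 2 than in the other 3 samples, whereas Lum lay between 248 and 307 CPM in all 6.

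The comparison of genotypes asked whether loss of Dram2 changed the number or the expression of these cells. Fibroblast 2 cells made up 14.1% (95% Wilson interval 13.1 to 15.3), 7.41% (6.69 to 8.20) and 7.96% (7.19 to 8.81) of all cells in the Dram2 wt/wt samples. They made up 17.5% (15.9 to 19.1), 15.2% (14.3 to 16.0) and 10.6% (9.68 to 11.6) in the Dram2 ko/ko samples. These intervals cover counting error only. Dram2 wt/wt samples averaged 9.83% ± 3.73 and Dram2 ko/ko samples 14.4% ± 3.50 (SD, n = 3 each), and Dram2 wt/wt replicate 1 lay above Dram2 ko/ko replicate 3. The difference of 4.58 percentage points did not pass the test between samples (exact two-sided permutation p = 0.2, and 0.1 is the smallest p that 3 samples against 3 allow). Among batch 1 samples alone, that is without Dram2 ko/ko replicate 3, the difference was 6.48 points (exact permutation p = 0.2). There every Dram2 ko/ko share lay above every Dram2 wt/wt share, and 0.2 is the smallest p that so few samples allow. The test could therefore not pass in that comparison.

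**Figure D3:**
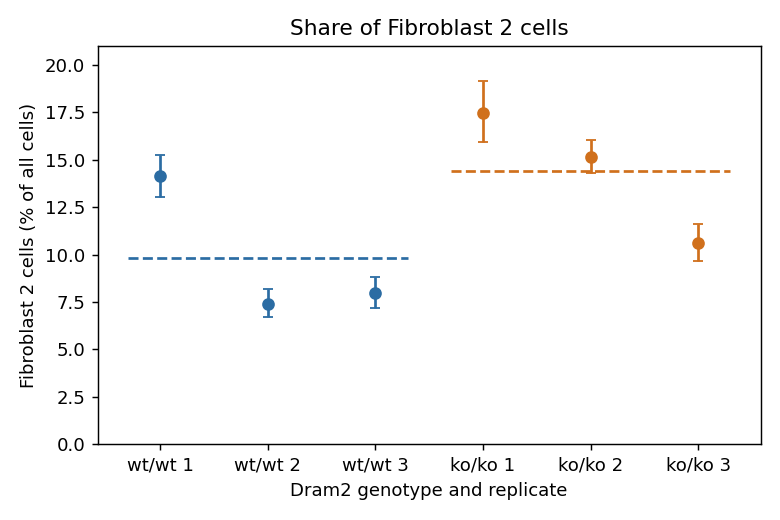
Fibroblast 2 cells as a percentage of all cells in each sample, with 95% Wilson intervals as bars and the mean of each genotype as a dashed line. The Dram2 ko/ko samples lie at 17.5%, 15.2% and 10.6%, and the highest Dram2 wt/wt sample, at 14.1%, overlaps with them.

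The targeted gene was at 28.8, 43.03 and 31.5 CPM in the Dram2 wt/wt and 28.9, 26.3 and 32.5 CPM in the Dram2 ko/ko samples in Fibroblast 2, and the groups overlapped. Its log2 fold change, Dram2 ko/ko against Dram2 wt/wt, was -0.19 (adjusted p 0.887, SE 0.15) by voom-limma. The library reads the 3′ end of transcripts, which lies outside the removed exon, so this level does not check the genotype.

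No gene was called higher and 33 of 14882 tested genes were called lower in Dram2 ko/ko Fibroblast 2 cells at an adjusted p under 0.05 (voom-limma with Benjamini-Hochberg adjustment over all genes tested, 0.222% of them). Of the 33 genes, 30 also passed a fold change of 2. At an unadjusted p under 0.05 there were 717 lower and 205 higher genes. In the upward direction edgeR's quasi-likelihood test called 0 and DESeq2 called 2. In the downward direction these tests called 11 and 166. The count was fragile, at 0 when replicate 1 or 3 of Dram2 wt/wt or replicate 2 of Dram2 ko/ko was left out, at 1 (Gm45808) without replicate 2 of Dram2 wt/wt, and at 121 without replicate 1 of Dram2 ko/ko, 29 of them among the 33. Within batch 1, without Dram2 ko/ko replicate 3, 49 genes were lower and 3 higher, and 30 of the 33 were among these 52. The median log2 fold change over all genes was -0.01.

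By the annotation, 17 of the 33 genes were protein-coding, 14 were pseudogenes, 1 was a microRNA gene (Mir686) and 1 a non-coding host gene of small nucleolar RNAs (Snhg15). Pseudogenes made up 42.4% of the called genes and 10.1% of the genes tested. To see how far such counts can be assigned, the final 400 bases of every annotated transcript of a gene were divided into overlapping 31-base words. These were pooled per gene and looked up in all other genes, so the shares cover all annotated 3′ ends and not only the end that was read. In 32 of the 33 genes at least 5% of these words occurred in other genes, against 36.7% of the 14847 tested genes with words to look up, and the exception was Gjb2. The lookup did not separate copies at another place from genes annotated across the same stretch. For genes with much shared sequence it is uncertain which gene the counts came from, and the share ran from 5.50% in Ndufc1 to 100% in Gm7808. Whether the libraries of the genotypes differed in read length or processing is not given in the sources used here. The 33 genes lay on 15 chromosomes.

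**Figure D4:**
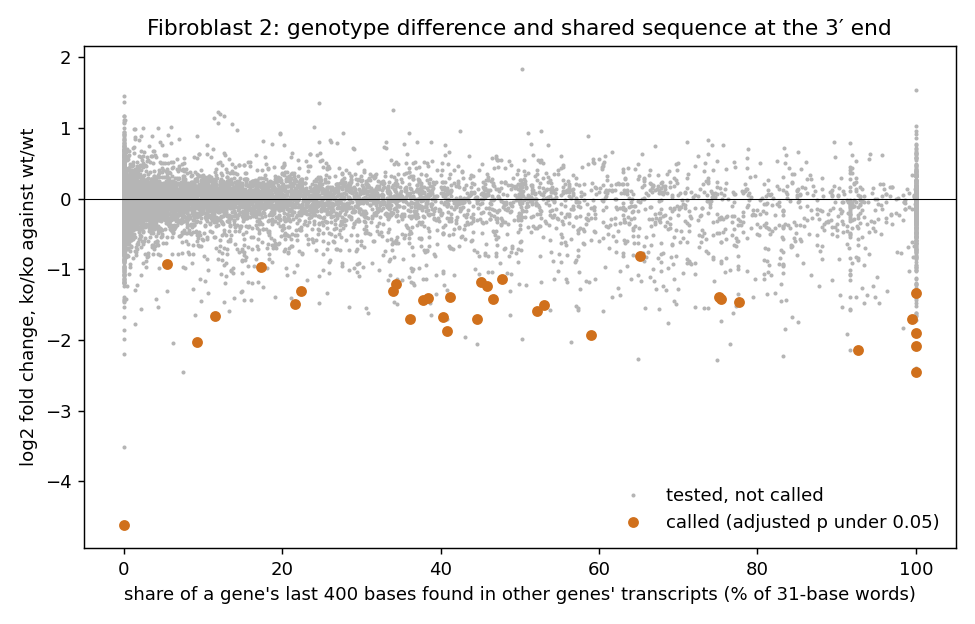
Log2 fold change between genotypes in Fibroblast 2 against the percentage of a gene's 3′ sequence that also occurs in other genes, for all tested genes with such sequence (grey) and the called genes (orange). All called genes lie below 0, between -4.62 and -0.81, and all but Gjb2 lie at 5.50% or more of shared sequence.

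Of the ribosomal genes, Rps20, a protein of the small subunit, was at 452, 459.9 and 476 CPM in the Dram2 wt/wt and 239, 163 and 125 CPM in the Dram2 ko/ko samples. The genotypes did not overlap, and the log2 fold change was -1.44 (adjusted p 0.0435, SE 0.19). Rpl41, Rpl36al and Rpl22l1, of the large subunit or its paralogs, had log2 fold changes of -1.31, -1.46 and -1.17. In the respiratory chain, Cox7c, a subunit of cytochrome c oxidase, was at 168, 196 and 210.1 CPM in the Dram2 wt/wt and 103, 66.5 and 51.7 CPM in the Dram2 ko/ko samples with a log2 fold change of -1.40 (adjusted p 0.0461, SE 0.21). Atp5l, of ATP synthase, and Ndufc1, of complex I, had -1.39 and -0.93. Ndufc1 had little shared sequence, 5.50%, and was at 281, 331 and 321 CPM in the Dram2 wt/wt and 200.2, 125 and 169 CPM in the Dram2 ko/ko samples. Snrpg and Lsm5, of the splicing and RNA decay machinery, had log2 fold changes of -1.49 and -1.21.

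Wdr89 was at 756, 782 and 848 CPM in the Dram2 wt/wt and 465, 298 and 233 CPM in the Dram2 ko/ko samples, a log2 fold change of -1.31 (adjusted p 0.048, SE 0.21). Its 3′ sequence holds words that occur in 3366 other genes. Gstp1, a glutathione transferase, was at 164, 155 and 136 CPM in the Dram2 wt/wt and 74.2, 73.4 and 56.4 CPM in the Dram2 ko/ko samples, or 44.9% of the Dram2 wt/wt mean, with -1.14 (adjusted p 0.0358, SE 0.13). It shares 47.8% of its 3′ sequence, all of it with the neighbouring copy Gstp2. Serf2 and Gng5 had log2 fold changes of -0.81 and -1.70, and Gm26938, whose whole 3′ sequence occurs in Tmem184a, had -2.45 at 2.01, 1.48 and 1.55 CPM in the Dram2 wt/wt and 0.334, 0.2 and 0.34 CPM in the Dram2 ko/ko samples. Gm45808 (chromosome 7, 45465984 to 45486811 of GRCm38) had the lowest adjusted p. It was at 16.7, 13.2 and 16.5 CPM in the Dram2 wt/wt and 4.08, 3.07 and 3.29 CPM in the Dram2 ko/ko samples, with a log2 fold change of -2.14 (adjusted p 0.0125, SE 0.20), and shares 92.7% of its 3′ sequence with other genes, namely 48.4% with Dhdh and 44.3% with Bax.

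**Figure D5:**
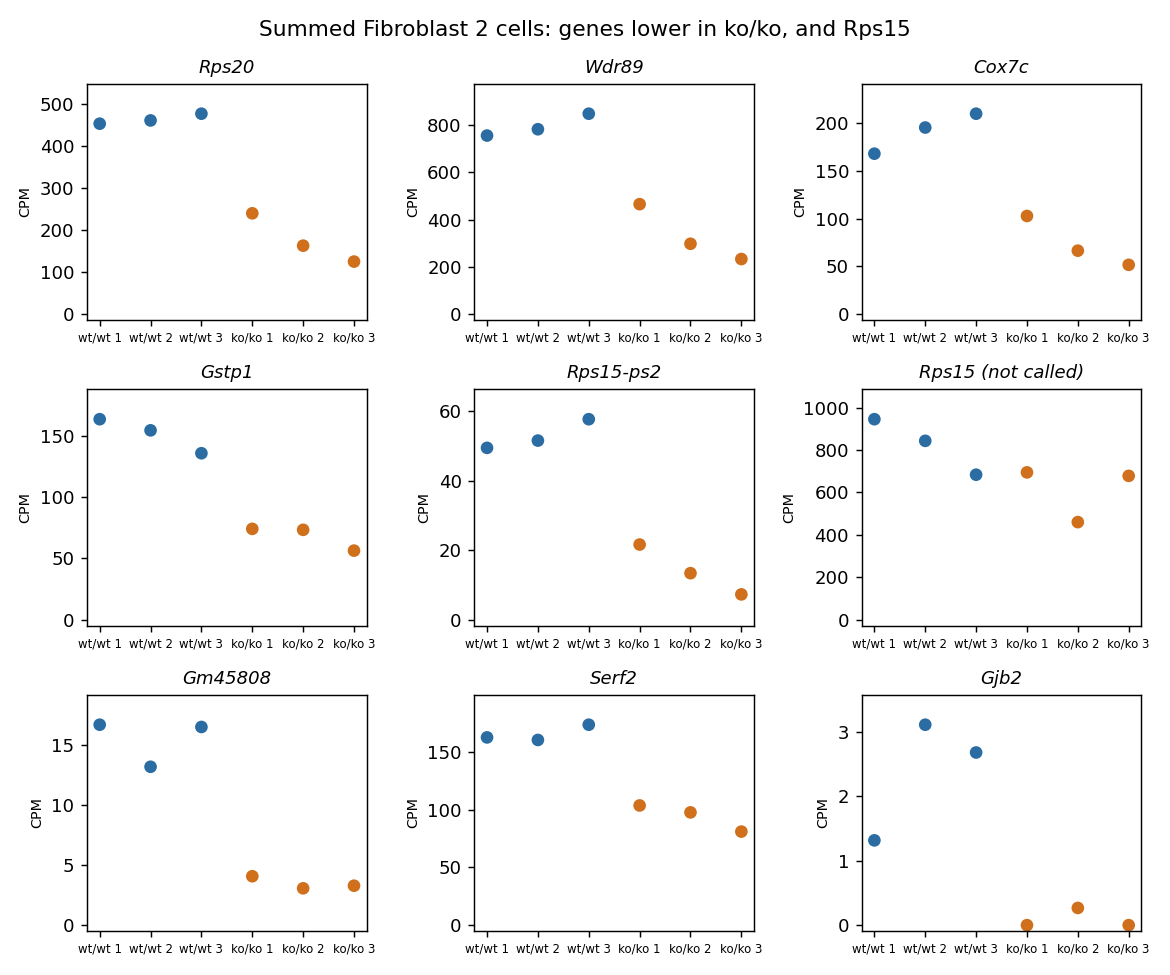
Level of 9 genes in the summed Fibroblast 2 cells of each sample, in CPM, with Dram2 wt/wt in blue and Dram2 ko/ko in orange. In the 8 called genes every Dram2 ko/ko value lies below every Dram2 wt/wt value, while Rps15, the parent of the pseudogene Rps15-ps2, had overlapping groups.

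The following pairs of sequences are stretches in which a single base separates a called pseudogene from its parent gene. For 5 called pseudogenes named after a parent gene, 30 bases are given from the pseudogene and from the coding sequence of the parent, 5′ to 3′, with the single differing base in capitals. They were taken from the GENCODE M21 transcripts on GRCm38.
Rps15, chr10:80294027-80294056, plus strand: ggccggccCgggatcggtgccacccactcc
Rps15-ps2, chr6:58017890-58017919, plus strand: ggccggccAgggatcggtgccacccactcc
Rps15a, chr7:118109164-118109193, minus strand: cttcattgtgctgacaacctCggctggcat
Rps15a-ps2, chr19:28742223-28742252, minus strand: cttcattgtgctgacaacctTggctggcat
Rps15a-ps4, chr4:132220109-132220138, minus strand: cttcattgtgctgacaacctAggctggcat
Rps19, chr7:24888932-24888961, plus strand: cagagagaCctggacaggatcgctggacag
Rps19-ps6, chr12:110898495-110898524, plus strand: cagagagaTctggacaggatcgctggacag
Rpl22, chr4:152330044-152330073, plus strand: ctggcaacctcggcggaggagtCgtgacca
Rpl22-ps1, chrX:8038807-8038836, minus strand: ctggcaacctcggcggaggagtTgtgacca

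In these 5 pairs the pseudogene was called and its parent was not, and the difference between parent and pseudogene was not tested. Rps15-ps2 was at 49.4, 51.5 and 57.6 CPM in the Dram2 wt/wt and 21.6, 13.4 and 7.26 CPM in the Dram2 ko/ko samples, with a log2 fold change of -1.93 (adjusted p 0.0435, SE 0.27). Rps15 itself was at 946, 844 and 684 CPM in the Dram2 wt/wt and 695, 460.1 and 678 CPM in the Dram2 ko/ko samples, where the groups overlapped, with -0.42 (adjusted p 0.7, SE 0.17). Rps19-ps6 had -1.71 (adjusted p 0.0435), whereas Rps19 had -0.08 (adjusted p 0.956). Rps15a-ps2 and Rps15a-ps4 had -1.87 and -1.59, and Rps15a had -0.71 (adjusted p 0.299), at 72.4, 70.6 and 69.7 CPM in the Dram2 wt/wt and 61.9, 37.4 and 32.5 CPM in the Dram2 ko/ko samples. Rpl22-ps1 had -1.24 and Rpl22 -0.39 (adjusted p 0.467), at 1103, 1080 and 1007 CPM in the Dram2 wt/wt and 923, 647 and 864 CPM in the Dram2 ko/ko samples. In Rps15a and Rpl22, though not called, all Dram2 ko/ko values thus lay below those of Dram2 wt/wt. Of the other called pseudogenes, Gm42786, Gm7808, Gm11598, Gm5457, Gm9711, Gm12005, Gm6181 and Gm10221 had log2 fold changes from -2.04 to -1.34.

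Summed over the 33 genes, the Dram2 wt/wt samples stood at 3062, 3243 and 3409 CPM and the Dram2 ko/ko samples at 1759, 1206 and 1010 CPM. Dram2 ko/ko replicate 1 had the highest Dram2 ko/ko level in 29 of the 33 genes and replicate 3 the lowest in 29. The longest annotated transcript had a median of 695 bases in the called genes and 2984 bases in the tested genes. When only the 9402 genes with under 5% shared 3′ sequence were read from the same fit, 1 was called (Gjb2), none was called when their p-values were adjusted among themselves, and 301 had an unadjusted p under 0.05. In the Fibroblast cells of the same samples all 33 genes were lower in Dram2 ko/ko too, with a median log2 fold change of -1.52 beside -1.46 in Fibroblast 2, and 1 of them, Gm45808, was called there (0.00503% of 19886 genes tested). Both comparisons rest on the same 6 libraries.

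Gjb2, or connexin 26, a gap junction protein, was the called gene without shared 3′ sequence, and its call rested on few molecules. The Dram2 wt/wt samples had 19, 21 and 19 UMIs and the Dram2 ko/ko samples 0, 4 and 0, which is 1.32, 3.12 and 2.68 CPM in the Dram2 wt/wt and 0, 0.267 and 0 CPM in the Dram2 ko/ko samples. Before thinning, these UMIs lay in 0.741%, 1.76% and 0.872% of the Dram2 wt/wt cells. In the Dram2 ko/ko samples the shares of cells were 0%, 0.397% and 0%. The groups did not overlap. The 10 RPE markers summed to 3.33, 6.38 and 2.97 CPM in the same Dram2 wt/wt and 1.47, 1.94 and 3.06 CPM in the Dram2 ko/ko samples, and their part in the result was not tested. The fitted log2 fold change of -4.62 (adjusted p 0.048, SE 0.71) depends on the offset added to such low counts. With an adjusted p of 0.0693 in edgeR's quasi-likelihood test and 2.75e-04 in DESeq2, and up to 0.236 when 1 sample was left out, the call was not stable. In Fibroblast, Gjb2 had a log2 fold change of -0.25 (adjusted p 0.947), and the difference between the types did not pass (adjusted p 0.543 for the interaction). The highest level among annotated types, 12.9 CPM, was in RPE cells. Of 10 connexin and pannexin genes, 4 were tested with Gjb2 among them, and Gja1, the most widespread connexin, had -0.23 (adjusted p 0.887, SE 0.18).

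The markers of the cell type were not called between genotypes. Dcn had a log2 fold change near 0, at 0.02 (adjusted p 0.99, SE 0.17), and so had Lum, at 0.04 (adjusted p 0.966, SE 0.12). Igfbp5 and Alpl had -0.35 and -0.39, Ccl11 0.03, Tcf21 0.42, Mgp 0.41 and Dram1 0.18, with adjusted p from 0.887 to 0.99. These values depended on single samples. Igfbp5 went from -0.73 when Dram2 wt/wt replicate 1 was left out to -0.07 when Dram2 ko/ko replicate 2 was. Tcf21 ranged from 0.17 on leaving out Dram2 ko/ko replicate 1 up to 0.74 on leaving out replicate 2 of that genotype, and Mgp from 0.14 in batch 1 alone up to 0.75 on leaving out Dram2 ko/ko replicate 1.

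Of the 22 gene lists, only that of connexins and pannexins had a called member, Gjb2, which was 1 of 4 genes tested. Over all genes tested, 0.222% were called lower. Gjb2 and the lists were chosen with earlier results of these data known, so this call does not set the list apart. Some lists leaned to one side without a call. All 14 contractile genes had a positive log2 fold change, with a median of 0.22 and a lowest adjusted p of 0.62, for Lmod1, which was at 38.02, 20.5 and 23.4 CPM in the Dram2 wt/wt and 36.9, 51.6 and 39.4 CPM in the Dram2 ko/ko samples. Acta2 had 0.37 (adjusted p 0.778, SE 0.16), and none of the 14 genes had groups that did not overlap. Of 16 immediate early genes tested, 5 (Jun, Jund, Egr2, Klf2 and Klf6) had every Dram2 ko/ko sample above every Dram2 wt/wt sample, where 4.81% of all genes did. Egr2 had the lowest adjusted p of that list, 0.445, at 6.87, 4.60 and 4.24 CPM in the Dram2 wt/wt and 8.22, 8.29 and 9.53 CPM in the Dram2 ko/ko samples. The smallest adjusted p of any list member other than Gjb2 was that of Mmp3, at 73.4, 88.6 and 71.3 CPM in the Dram2 wt/wt and 36.1, 42.6 and 57.05 CPM in the Dram2 ko/ko samples, which did not overlap, with -0.80 (adjusted p 0.103, SE 0.16). Mmp9 and Adamts2, also among the 19 metalloproteinase and inhibitor genes tested, likewise lay below Dram2 wt/wt in all Dram2 ko/ko samples, where 6.6% of all genes did, and Timp1 lay above. That list was balanced, with 10 positive and 9 negative values.

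The chemokines and cytokines had 12 positive and 6 negative values with a median of 0.08, and Il11, Ccl7 and Ccl2 had 0.06, 0.27 and 0.37. Of 20 collagens tested, 18 were negative, with a median of -0.17 and a smallest adjusted p of 0.773. Among 13 Wnt pathway genes, Dkk2 had the lowest adjusted p, 0.358, at 222, 247 and 267 CPM in the Dram2 wt/wt and 201, 176 and 198 CPM in the Dram2 ko/ko samples, and Wnt5a and Axin2 also lay below in all Dram2 ko/ko samples, while Wnt11 lay above, with 7 positive and 6 negative values in the list. Over all genes tested, 6.6% lay below and 4.81% above in this way. The 15 G2/M phase genes had a median of -0.42 with 3 positive and 12 negative values, at low counts. Autophagy and lysosome genes, the processes Dram2 is linked to, had medians of 0.03 over 21 genes and -0.04 over 24 genes, with lowest adjusted p values of 0.887 and 0.844.

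The 5 protein-coding genes of lowest p in the upward direction whose groups did not overlap did not pass either. Mcm6, a subunit of the replicative helicase, was at 18.6, 17.5 and 15.96 CPM in the Dram2 wt/wt and 26.9, 26.1 and 23.8 CPM in the Dram2 ko/ko samples, with 0.56 (adjusted p 0.145, SE 0.12). Akr1c18, a steroid-reducing enzyme, was at 10.2, 4.75 and 10.9 CPM in the Dram2 wt/wt and 20.8, 14.7 and 18.7 CPM in the Dram2 ko/ko samples, with 1.08 (adjusted p 0.234, SE 0.27), and it passed in DESeq2 (adjusted p 0.00601). Mrpl22, Tsen15 and Sox9 had log2 fold changes of 0.45, 0.51 and 0.47. Sox9, a transcription factor of cartilage and neural crest derivatives, was at 22.7, 22.3 and 19.5 CPM in the Dram2 wt/wt and 32.4, 28.7 and 27.9 CPM in the Dram2 ko/ko samples.

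The ribosomal and respiratory chain genes were then counted as whole lists, which were added after the called genes were seen and are no independent evidence. Of 81 cytosolic ribosomal protein genes tested, 62 had a negative log2 fold change, with a median of -0.27, 4 were called lower and none higher, and in 33 all Dram2 ko/ko samples lay below Dram2 wt/wt. Of 75 nuclear-encoded subunits of the respiratory chain, 51 were negative, with a median of -0.29, 3 were called lower and none higher, and in 29 the Dram2 ko/ko samples lay below. Over all 14882 genes tested, 7761 were negative, 0.222% were called lower, and 6.6% had all Dram2 ko/ko samples below Dram2 wt/wt.

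Whether the genotype difference itself differed between Fibroblast 2 and Fibroblast was tested with an interaction term over 18959 genes. No gene was called by voom-limma (0% of those tested), with 973 genes at an unadjusted p under 0.05 and a lowest adjusted p of 0.398, and edgeR's quasi-likelihood test called 0 as well. Without Dram2 wt/wt replicate 1 the count was 47. Without Dram2 wt/wt replicate 2 it was 1, Ccl11, and without Dram2 wt/wt replicate 3 it was 1, Acta1. Acta1 was named after its values were seen.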

How the data were processed

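Single cells from 6 cultured RPE/choroid samples were sequenced with 10x Genomics 3′ chemistry. The authors deposited UMI counts for 52636 genes and 25428 cells, made with Cell Ranger 3.1.0 (version per the submitters' processing notes) on mouse mm10 (GRCm38) with exons only. They also deposited each cell's sample, cell type and fibroblast sub-cluster, obtained with Seurat after integration over batches. The filters the authors applied to cells are not given in the sources used here. GENCODE M21 on GRCm38 named 52489 of the genes.

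Samples were the replicates. Counts were summed over the Fibroblast 2 cells of each sample, kept where filterByExpr (edgeR 4.0.16) passed them, normalized by TMM and compared with voom-limma (limma 3.58.1, R 4.3.3), the test the study's methods name, without covariates. The interaction with Fibroblast used the same tools. Tests were two-sided. CPM divides a count by the total of its sum. All deposited cells entered, no doublet caller was run, and an alternative left out the 5% of cells with the most UMIs. For shares of cells with a UMI, each cell was thinned to 5000 UMIs and shallower cells were left out.

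Named genes were the 6 markers with Mgp, Dram2, Dram1 and Gjb2, the 12 protein-coding genes highest and lowest against Fibroblast, up to 7 genes per list (3 by level, 2 each by highest and lowest difference), all called genes, and 5 per direction without calls. The members, lists and rule were chosen with earlier results of these data known. Parent genes of pseudogenes, and genes named for groups that did not overlap, were named after their values were seen. Alternatives were DESeq2 1.42.0, edgeR's quasi-likelihood test, other size factors, no filter, batch as covariate, a replicate block, cell filters, thinning and leaving out each sample. A few genes are not reported here.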

Additional observations from a re-analysis of the deposited data

How the results depend on the processing

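The count of 33 genes lower in Dram2 ko/ko Fibroblast 2 cells depended on the test. It was 11 with edgeR's quasi-likelihood test, 168 with DESeq2 (166 lower, 2 higher, all 33 included), 8 with library size alone, 71 with no filter on low counts, 58 with cells thinned to 10000 UMIs, and 2 (Gstp1 and Gm45808) with the replicate number as a block. Same-numbered samples share only a number (correlations of their deviations from the genotype means 0.0121, -0.316 and 0.0902), and not every sample correlated best with its own number (Dram2 wt/wt replicate 1 with Dram2 ko/ko replicate 2, 0.461). Leaving out 1 sample gave 0 to 121. The cause was not tested. It stayed within 1.5 times with DESeq2-type size factors (34), batch as a covariate (49, of which 2 higher), the cell filter (33) and without the 5% of cells with most UMIs (32). Of 326 values of the called genes under these alternatives, 241 kept their call and 85 lost it, and of 198 values with 1 sample left out, 60 kept it and 138 lost it. No value of a called gene changed direction. Among markers that were not called, the log2 fold change turned sign for Dcn with batch as a covariate (-0.15), without the 5% of cells with most UMIs (-0.014) and on leaving out 1 sample (lowest -0.13, highest 0.13), for Ccl11 with batch as a covariate (-0.17), with thinned cells (-0.049) and on leaving out 1 sample (-0.24 to 0.23), for Lum on leaving out 1 sample (-0.028 to 0.15) and for Alpl (-0.89 to 0.00801). The difference between Fibroblast 2 and Fibroblast went from 0 called genes to a range of 0 to 47 on leaving out 1 sample and stayed at 0 in the other alternatives. The difference in share stayed positive and did not pass, at 4.96 points of the 4 fibroblast types, 4.87 with the cell filter, 3.04 to 6.72 on leaving out 1 sample, and a log2 fold change of 0.55 in cell numbers (quasi-likelihood adjusted p 0.49). Genes at a few CPM, such as Gjb2 and Gm26938, rest on few UMIs.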
